A study of Mus musculus with 6 samples.

Results

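Transcripts of 9 genes of the hedgehog pathway and the floor plate were followed in rhombomere 4 of the mouse hindbrain, in embryos with a mutation in Hoxb1 and in wild-type embryos. The genes are Shh, Gas1, Hhip, Ptch1, Smo, Gli1, Gli2, Gli3 and Foxa2. They were taken by name, with every probe set to which the platform annotation gives 1 of these symbols alone, which left 15 of the 22626 probe sets tested and 9 of 12393 named genes. Of the 9 genes, 5 had more than 1 probe set. All samples were rhombomere 4 tissue taken at E10.5, a midgestation stage counted in days after conception. The first group held 3 arrays of Hoxb1 mutant segments and the second 3 arrays of segments from wild-type embryos, which the source field calls normal. Each array was hybridised with RNA from a pool of segments of several embryos, and the submitters state that the 3 pools of a group are independent biological replicates. The labels name neither the Hoxb1 allele nor its zygosity, the strain or the number of embryos in a pool.

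Sonic hedgehog (Shh) is a secreted signal made by the notochord and then by the floor plate, the strip of cells at the ventral midline of the neural tube. Without ligand the receptor Ptch1 holds the membrane protein Smo inactive, and ligand binding lifts that block, so that the Gli transcription factors act at the primary cilium and in the nucleus as activators rather than repressors. Gli1, Ptch1 and Hhip are themselves induced by the signal and are commonly read as its output, and the level of signal sets the ventral progenitor domains of the hindbrain, among them the Nkx2-2 domain from which branchiomotor neurons of rhombomere 4 arise. Shh is also made in the endoderm of the branchial arches, where it acts on mesenchyme derived from the neural crest.

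The promoters of Ptch1 and Hhip are shown because both genes are outputs of the pathway that were measured here, and because GLI factors bind the 9 bases GACCACCCA. They are RefSeq sequences of build GRCm38.p6, each with 250 bases before and 50 after the annotated start of transcription, written 5′ to 3′ along the gene. Ptch1 lies at chr13:63565686-63565985 on the minus strand and Hhip at chr8:80057959-80058258 on the minus strand. Capitals mark the 6 bases CCACCC, which lie within the 9 bases.
Ptch1: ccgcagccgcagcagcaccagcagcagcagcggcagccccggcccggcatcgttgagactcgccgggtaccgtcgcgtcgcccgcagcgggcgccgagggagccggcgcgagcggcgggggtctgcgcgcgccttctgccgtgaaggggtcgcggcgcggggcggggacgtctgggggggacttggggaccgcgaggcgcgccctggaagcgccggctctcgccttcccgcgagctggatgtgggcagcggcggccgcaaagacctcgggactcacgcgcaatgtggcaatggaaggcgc
Hhip: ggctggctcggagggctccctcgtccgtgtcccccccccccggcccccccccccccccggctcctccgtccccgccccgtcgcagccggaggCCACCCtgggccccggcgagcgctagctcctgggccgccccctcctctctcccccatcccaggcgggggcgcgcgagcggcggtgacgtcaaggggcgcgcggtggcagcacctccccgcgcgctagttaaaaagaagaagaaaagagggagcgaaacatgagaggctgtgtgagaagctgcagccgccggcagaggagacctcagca
The search covered both strands. GACCACCCA was in none of the 9 promoter windows held for 7 of the 9 genes, and 0.253% of all 32851 windows of this length had it. The shorter CCACCC was in 1 place in the Hhip window, starting 158 bases before the start of transcription, and in 0 places in that of Ptch1. It was in 6 of the 9 windows, from 5 of the 7 genes, and in 31.5% of all windows. A match is thus a description of the letters and not a binding site. GLI sites elsewhere were not searched.

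Depth on an array is signal over background. Median intensities were 187 to 214 on the 6 arrays. The background level used here, 61.5, was the 95th percentile of probe sets that target bacterial transcripts. Hoxb1 itself gave 48.7 ± 12.8 in mutants and 436 ± 134 in wild type (SD, n = 3 each), at least 6.88-fold lower in mutants. Its limma adjusted p was 0.0695, and the labels do not say whether this probe set falls in the altered part of the gene. In probe sets for 18S ribosomal RNA the 3 mutant arrays and wild-type replicate 1 gave mean log2 signals of 6.36 to 7.03. Wild-type replicates 2 and 3 stood apart there at 12.1 and 11.3, and results that rest on those 2 arrays are also given with that signal as a covariate or without them. The tissue held neural cells and others, as the labels say. Of the progenitor markers 12 of 13 were above background on all arrays, as were 16 of 19 markers of arch mesenchyme and crest and 12 of 14 of pharyngeal endoderm and other epithelium. In such bulk tissue, fewer cells of a type and less RNA per cell cannot be told apart.

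No difference in Shh or the other 8 genes passed the test. Of the 15 probe sets, 11 were above background on all 6 arrays and 1 on none. Of the 15 probe sets, 0 passed an adjusted p of 0.05 in limma, where 0% of all probe sets did, and the lowest adjusted p among them was 0.651. An unadjusted p under 0.05 was reached by 1 of the 15, or 6.67%, near the 5.76% of all probe sets. Group means on the log2 scale were lower in mutants for 11 of the 15 probe sets and higher for 4, with 54.2% lower over all probe sets. The median log2 difference, mutant minus wild type, was -0.11 over the 15 probe sets and -0.02 over all of them. The 6 intensities of a probe set did not overlap between the groups in 5 of the 15, or 33.3%, against 12% of all probe sets. Those lower in mutants numbered 3 of the 15, against 7.08% of all probe sets, and those higher numbered 2, against 4.88%.

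**Figure D1:**
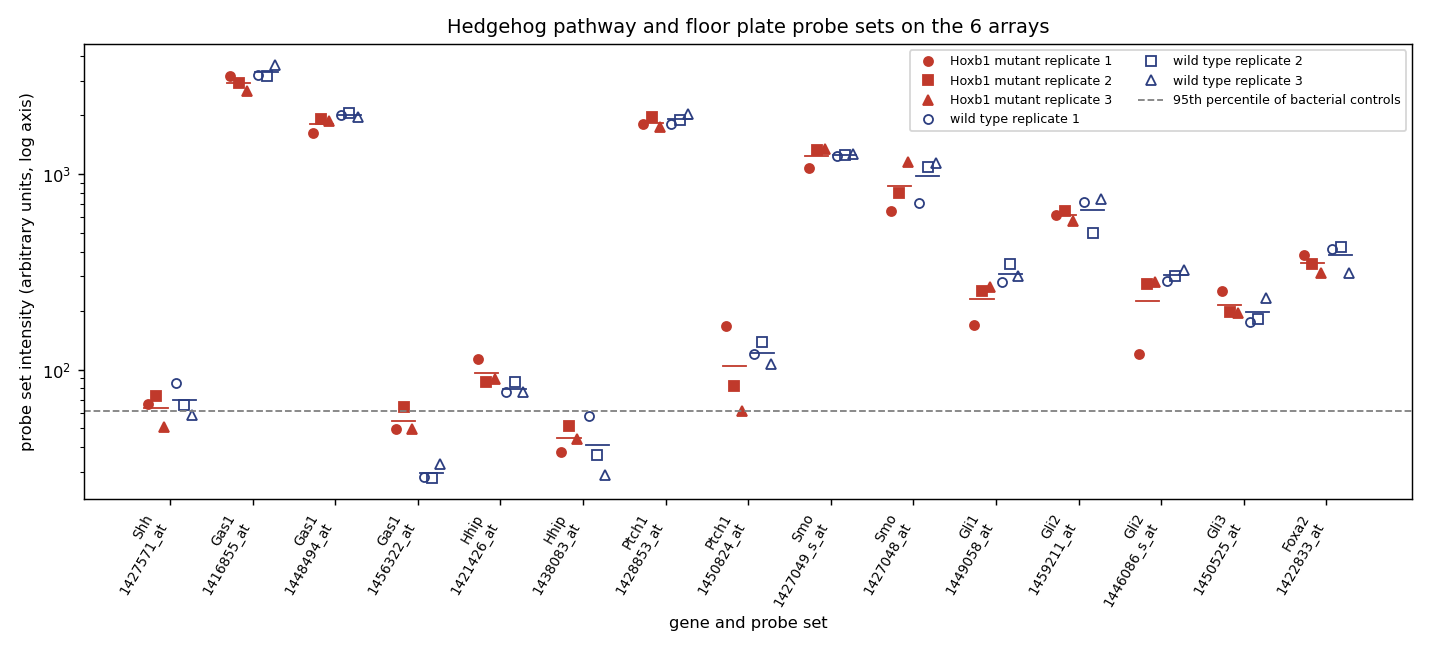
Intensity of each probe set (log axis, arbitrary units) on the 3 Hoxb1 mutant arrays (filled, left) and the 3 wild-type arrays (open, right), with group means as lines and the bacterial 95th percentile of 61.5 as a dashed line. The groups lie apart for Gli1, for 1 Gli2 probe set, for 1 Hhip probe set and for 2 of the 3 Gas1 probe sets, and mutant replicate 1 is the low point in Gli1 and in the Gli2 probe set 1446086_s_at.

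Shh, the ligand, was close to background in this tissue. Its only probe set (1427571_at, chromosome 5) gave 66.5, 72.9 and 50.7 in the mutant pools, and 85.8, 65.9 and 58.3 in the wild-type pools. The groups overlapped, and 4 of the 6 arrays lay above 61.5. The log2 difference was -0.11 (SE 0.17), with a 95% interval of -0.52 to 0.30, and a difference within it was not detectable at this signal. Without wild-type replicate 1 or without mutant replicate 3 the difference changed sign. With the 18S signal as a covariate it was -0.33, and without wild-type replicates 2 and 3 it was -0.37.

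Foxa2, a forkhead factor that Shh induces in the floor plate and that in turn activates Shh, was measured well above background. Its probe set (1422833_at, chromosome 2) gave 387, 348 and 313 in mutants, and 413, 426 and 312 in wild type. The lowest array of each group was replicate 3, and the groups overlapped. The log2 difference was -0.12 (SE 0.16, 95% interval -0.50 to 0.26), with a limma adjusted p of 0.918.

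Gas1, a membrane-anchored co-receptor that promotes signalling at low ligand levels, had probe sets whose differences between the groups ran in both directions. The probe set 1416855_at (chromosome 13) gave 3172, 2910 and 2656 in mutants and 3197, 3158 and 3627 in wild type. Its groups overlapped only by mutant replicate 1, which lay between the wild-type arrays. A second probe set, 1448494_at, gave 1618, 1918 and 1875 in mutants and 1996, 2045 and 1957 in wild type, with every mutant array below every wild-type array. These probe sets had log2 differences of -0.19 (SE 0.12) and -0.15 (SE 0.12), with limma adjusted p of 0.850 and 0.864.

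The third Gas1 probe set went the other way at the level of background. The probe set 1456322_at gave 49.9, 64.2 and 49.6 in mutants and 28.2, 27.8 and 33.1 in wild type. The groups did not overlap, but 1 of the 6 arrays was above 61.5. It was the member with an unadjusted p under 0.05, at 0.00222 in limma (log2 difference 0.62, SE 0.13), and its adjusted p was 0.651. The bright probe sets of the same gene had differences of the opposite sign.

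Hhip, a membrane protein that binds hedgehog ligands and removes them from signalling, was dim. The probe set 1421426_at (chromosome 8) gave 114, 86.2 and 89.6 in mutants and 76.5, 85.9 and 76.9 in wild type. All mutant arrays were above all wild-type arrays, although the nearest of them, at 86.2 and 85.9, were almost level. The log2 difference was 0.22 (SE 0.13, 95% interval -0.09 to 0.54, limma adjusted p 0.841), and without mutant replicate 1 it was 0.12. The other probe set, 1438083_at, was below 61.5 on all 6 arrays, at 37.9 to 51.3 in mutants and 29.0 to 57.7 in wild type.

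Ptch1, the receptor and a target of the pathway, had the smallest standard error of the 15 in its bright probe set. The bright probe set 1428853_at (chromosome 13) gave 1794, 1950 and 1731 in mutants and 1813, 1886 and 2018 in wild type. The groups overlapped, with means of 1825 ± 113 in mutants and 1906 ± 104 in wild type (SD, n = 3 each). The log2 difference was -0.06 (SE 0.11) with a 95% interval of -0.33 to 0.20, which leaves room for a modest change in either direction.

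The second Ptch1 probe set was dim and scattered. Probe set 1450824_at gave 167, 82.8 and 61.3 in mutants and 120, 139 and 106 in wild type, so that mutant replicate 1 was the highest of the 6 arrays and the other mutants were the lowest. Its log2 difference was -0.29 (SE 0.31), and leaving out mutant replicate 1 moved it to -0.65 (limma unadjusted p 0.0112, adjusted p 0.534). Of the Ptch1 probe sets, the brighter one had the narrower interval.

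Smo, the membrane protein that passes the signal on once Ptch1 releases it, did not separate the groups in either probe set. The probe set 1427049_s_at (chromosome 6) gave 1070, 1320 and 1342 in mutants and 1232, 1250 and 1267 in wild type. Its log2 difference was -0.01 (SE 0.13, 95% interval -0.32 to 0.29). The probe set 1427048_at gave 646, 803 and 1155 in mutants and 713, 1087 and 1140 in wild type, with replicate 1 the lowest array of each group. The spread within each group, 261 in mutants and 232 in wild type (SD), was larger than the difference between the means.

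Gli1, the transcription factor that depends on the pathway for its own transcription, was lower in every mutant pool than in any wild-type pool. Its only probe set (1449058_at, chromosome 10) gave 169, 252 and 264 in mutants and 282, 346 and 302 in wild type. The means were 228 ± 52.0 in mutants and 310 ± 32.9 in wild type (SD, n = 3 each), a log2 difference of -0.44 (SE 0.19, 95% interval -0.89 to 0.02). The limma unadjusted p was 0.0562 and the adjusted p 0.833, and the exact permutation test gave 0.1, the smallest 2-sided p that 3 against 3 arrays allow.

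The Gli1 difference rested in part on 1 mutant pool. Without mutant replicate 1 it was -0.25 (limma adjusted p 0.638), and without each other array in turn it lay between -0.55 and -0.36. With the 18S signal as a covariate it was -0.35, and without wild-type replicates 2 and 3 it was -0.31, where the 1 wild-type array left is assumed to vary like the mutants. Of 13 neural progenitor markers 11 had lower means in mutants, against 54.5% of all genes. The summed intensity of the 13 was 22780 to 23476 in mutants against 24458 to 27456 in wild type. Vim, which is not particular to progenitors, gave 10734 to 11233 of that sum in mutants and 11404 to 11719 in wild type. Of 19 arch mesenchyme and crest markers 16 had lower means, with sums of 15939 to 16622 in mutants and 17158 to 19174 in wild type. None of these markers was at 0 on any array, and the part of such shifts in the Gli1 value was not tested.

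**Figure D2:**
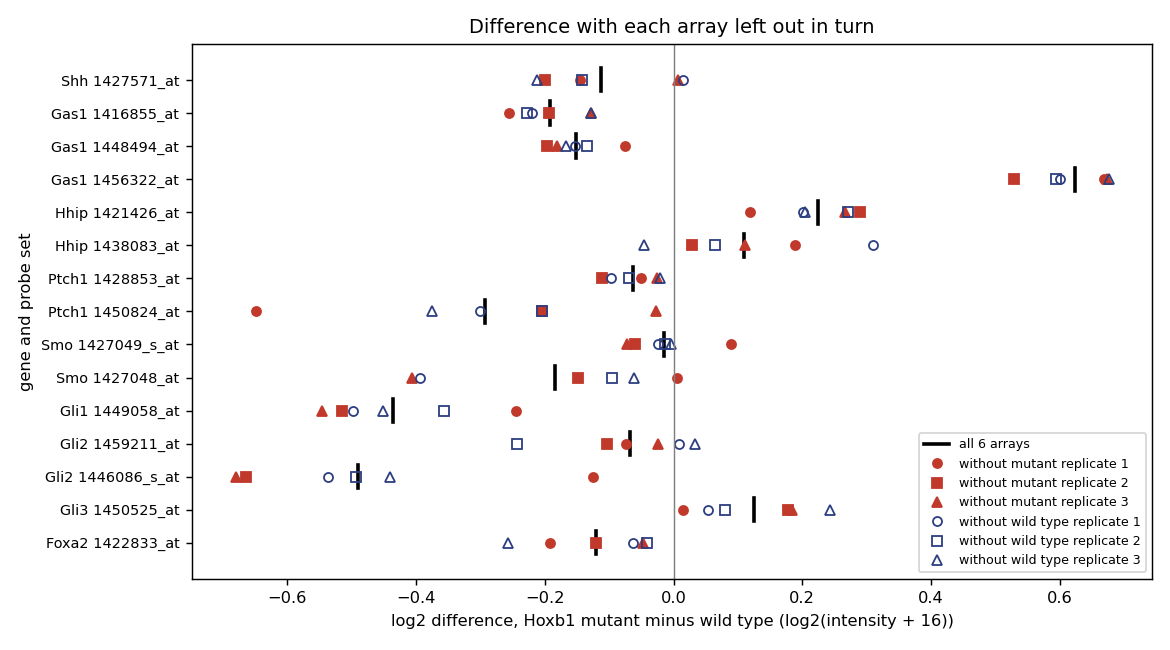
Log2 difference (mutant minus wild type) of each probe set with all 6 arrays (black bar), without each mutant array (filled) and without each wild-type array (open). Without mutant replicate 1 the Gli1 difference is -0.25 and that of Gli2 1446086_s_at is -0.12, while Ptch1 1450824_at moves to -0.65.

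Gli2, the main activator among the Gli factors, gave values that depended on the probe set. The brighter probe set 1459211_at (chromosome 1) gave 620, 648 and 578 in mutants and 718, 502 and 743 in wild type, and the mutants lay within the wild-type range. Its log2 difference was -0.07 (SE 0.17), and it changed sign without wild-type replicate 1 or 3. The probe set 1446086_s_at gave 121, 273 and 279 in mutants and 282, 301 and 325 in wild type. All mutant arrays were below all wild-type arrays there, but mutant replicate 1 stood far below the other mutants. The log2 difference of -0.49 (SE 0.30, limma adjusted p 0.845) became -0.12 without that array. Both probe sets are listed with the same source sequence in the platform annotation.

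Gli3, which acts mainly as the repressor of hedgehog targets, overlapped between the groups. Its probe set (1450525_at, chromosome 13) gave 252, 197 and 195 in mutants and 174, 182 and 232 in wild type. The log2 difference was 0.13 (SE 0.16, 95% interval -0.26 to 0.51), and it was 0.01 without mutant replicate 1. That pool was the lowest mutant in 6 of the 15 probe sets and the highest in 5. Over all probe sets, the number with an unadjusted p under 0.05 was 1303 with all arrays and 1975 without it.

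**Figure D3:**
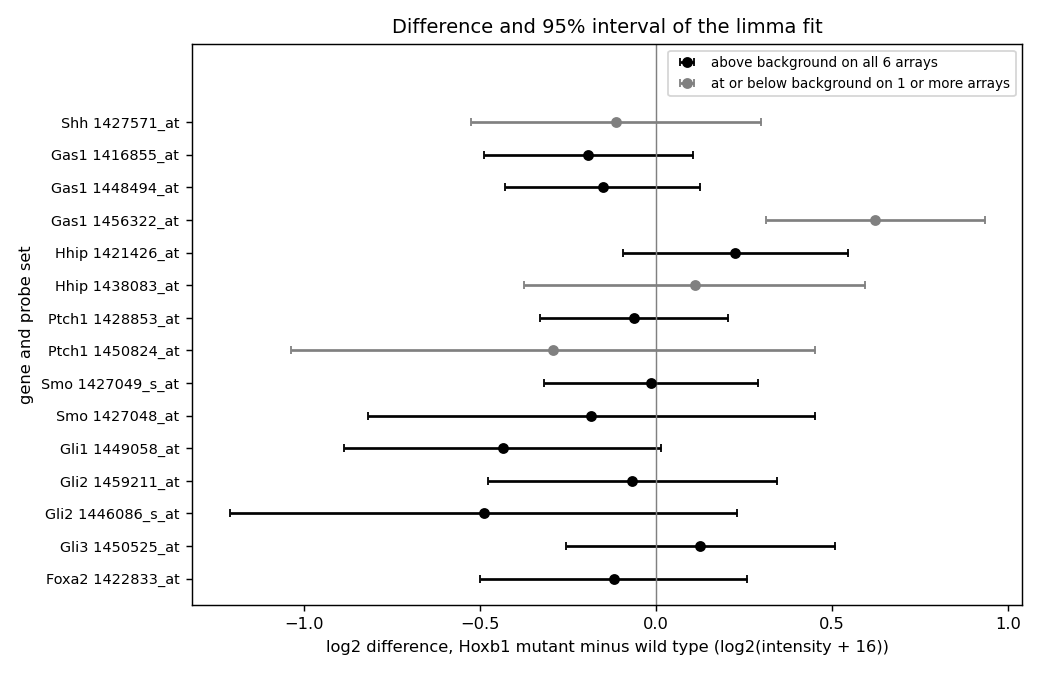
Log2 difference, mutant minus wild type, with the 95% interval of the limma fit, for probe sets above background on all 6 arrays (black) and for the others (grey). The interval holds 0 for all but Gas1 1456322_at, whose intensity lay at or below 61.5 on 5 of the 6 arrays.

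Further genes of the pathway were counted from lists drawn from background knowledge, with the probe set of highest mean for each gene. Together the lists held 69 measured genes, the 9 genes above included. Their means were lower in mutants for 49, or 71.0%, against 54.5% of all genes, and 0 passed an adjusted p of 0.05 in limma (lowest 0.345). An unadjusted p under 0.05 was reached by 7 that were lower and 2 that were higher in mutants. The sum is 13.0% of the 69, against 5.45% of all genes at 1 probe set per gene, of which 3.75% were lower and 1.7% higher. The count of 9 became 3 of the 69 with the 18S covariate, where 4.01% of all probe sets reached that threshold. It was 5 without wild-type replicate 2, where 4.89% of all probe sets did. With the covariate Efcab7, Nkx2-2 and Slit1 kept an unadjusted p under 0.05 in limma, while Sulf2, Evc, Prkaca, Gsk3b, Ccnd1 and Slit3 did not. Earlier results of these data had shown Efcab7, Nkx2-2 and Slit1 to differ before the lists were drawn up. The counts over the 69 genes are therefore partly fixed by that choice. The groups did not overlap for 17 of the 69, or 24.6%, against 12.3% of all genes. The median log2 difference was -0.10 over the 69 genes and -0.02 over all genes. Lower means in mutants were also counted for markers of other cell types. Their share was 84.6% for neural progenitor and for neuron markers, 84.2% for arch mesenchyme and crest and 75% for endothelium. It was 62.5% for blood, 57.1% for pharyngeal endoderm and other epithelium, 42.9% for muscle and mesoderm and 28.6% for notochord.

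Genes for making and releasing the ligand had lower means in mutants in 7 of 7 measured members, against 54.5% of all genes. The difference was smaller than its SE for Shh (-0.11, SE 0.17), Scube2 (-0.09, SE 0.26), Ihh and Dhh. With 3.75% of all genes lower at an unadjusted p under 0.05, the list had 1 such gene. That one was Sulf2, an extracellular enzyme that edits heparan sulphate, at 1556, 1526 and 1467 in mutants and 1875, 1911 and 2177 in wild type. Every mutant array was lower than every wild-type array (log2 difference -0.38, SE 0.11, limma adjusted p 0.825). With the 18S covariate the difference was -0.32 (limma unadjusted p 0.109), and without wild-type replicates 2 and 3 it was -0.30 (unadjusted p 0.136). Hhat, which attaches palmitate to the ligand, gave 70.0, 80.2 and 59.8 in mutants and 78.8, 87.4 and 113 in wild type, with overlapping groups. The other hedgehog ligand genes Ihh and Dhh had log2 differences of -0.10 (SE 0.15) and -0.04 (SE 0.28), and Scube1, of the family that helps release the ligand, had -0.16 (SE 0.11).

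Among 8 receptors and co-receptors, 5 had lower and 3 higher means in mutants, and 0 reached an unadjusted p under 0.05. The co-receptor Boc had a log2 difference of 0.03 (SE 0.18) at 513 ± 114 in mutants and 494 ± 15.8 in wild type. Cdon, its partner, was below background on all 6 arrays. Gpc3, a glypican that competes with Ptch1 for the ligand, gave 2663 in mutants and 2895 in wild type on average (log2 difference -0.12, SE 0.10). Lrp2, a large endocytic receptor that binds Shh, had -0.10 (SE 0.10) in its brighter probe set and 0.35 (SE 0.15) in the other.

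Among the intracellular steps, differences ran in both directions. Of 14 measured genes, 2 were lower and 2 higher at an unadjusted p under 0.05, against 3.75% and 1.7% of all genes. The median log2 difference was -0.06. Efcab7, a protein that tethers the EVC complex at the base of the cilium, gave 324, 296 and 316 in mutants and 128, 109 and 167 in wild type. The mutant arrays were far above the wild-type arrays (log2 difference 1.14, SE 0.16, limma adjusted p 0.345), and the difference was 1.15 with the 18S covariate. When the lists were drawn up, earlier results of these data had already shown Efcab7 high and Nkx2-2 and Slit1 low in mutants.

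Evc, a component of that ciliary complex, which helps Smo signal, gave 170, 193 and 170 in mutants and 251, 214 and 284 in wild type. All mutant arrays were below the wild-type arrays (log2 difference -0.45, SE 0.14, limma adjusted p 0.833). A dimmer Evc probe set had a log2 difference of 0.57 (SE 0.56). Prkaca, a catalytic subunit of protein kinase A, which phosphorylates Gli factors and restrains the pathway, gave 956, 856 and 823 in mutants and 1009, 1244 and 1322 in wild type. Its difference of -0.43 (SE 0.14) was -0.21 with the 18S covariate and -0.20 without wild-type replicates 2 and 3. Gsk3b, a kinase that acts on Gli factors after protein kinase A, gave 305, 310 and 301 in mutants and 248, 239 and 265 in wild type (log2 difference 0.27, SE 0.10). Sufu, which holds Gli factors in the cytoplasm, gave 545 in mutants and 672 in wild type on average, with overlapping groups. Prkacb, another catalytic subunit of protein kinase A, had log2 differences of 0.33 (SE 0.19) and -0.08 (SE 0.16) in its probe sets.

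Genes of the primary cilium, in which the pathway signals, had no member past the test. Of 9 measured, 7 had lower and 2 higher means in mutants, with 54.5% lower over all genes. An unadjusted p under 0.05 was reached by 0, and the groups overlapped for all 9 in the probe set of highest mean. Ofd1 and Kif3b, a subunit of the kinesin that moves cargo into the cilium, both had -0.18 there (SE 0.16 and 0.14). The other Kif3b probe sets had -0.24 (SE 0.13), with groups that did not overlap, -0.07 (SE 0.14) and 0.09 (SE 0.19). The intraflagellar transport genes Ift88 and Ift80 had -0.02 (SE 0.11) and 0.05 (SE 0.16).

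Genes that hedgehog signalling induces had lower means in mutants in 13 of 18 cases and higher means in 5, with 54.5% lower over all genes. Gli1, Ptch1 and Foxa2 were among the 13 and Hhip among the 5. At an unadjusted p under 0.05 there were 2, both lower, against 3.75% of all genes lower at that threshold. Nkx2-2 was among the 2 and was known to be low in these data before the lists were drawn up. That count is therefore partly fixed by the choice of genes. The median log2 difference of the 18 was -0.12. Nkx2-2, a homeobox factor of the progenitors next to the floor plate, gave 106, 107 and 86.2 in mutants and 173, 179 and 213 in wild type. The groups lay well apart (log2 difference -0.82, SE 0.14, limma adjusted p 0.481), and the difference was -0.73 with the 18S covariate. Ccnd1, which encodes cyclin D1, gave 3392 ± 213 in mutants and 4200 ± 266 in wild type with its brightest probe set (log2 difference -0.31, SE 0.11), while its other probe sets had 0.08 (SE 0.16) and -0.14 (SE 0.11). Foxf1, a forkhead target in mesenchyme, gave 166, 201 and 207 in mutants and 213, 298 and 234 in wild type, also with no overlap. Nkx6-1, a factor of the ventral progenitor domains, gave 11.3, 106 and 71.5 in mutants and 91.4, 140 and 223 in wild type, and its groups overlapped. The 5 with higher means in mutants were Hhip (log2 difference 0.22, SE 0.13), the only one whose groups did not overlap, Bcl2 (0.18, SE 0.18), Ccnd2 (0.15, SE 0.11), Rab34 (0.10, SE 0.12) and Olig2 (0.04, SE 0.29). Olig2, Nkx2-9 and Foxl1 were below background on all 6 arrays.

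Genes that the signal keeps out of the ventral neural tube had no member past the test. Of 9 measured, 4 had lower and 5 higher means in mutants, 0 reached an unadjusted p under 0.05, and the median log2 difference was 0.00. Irx3, a homeobox factor of intermediate progenitors, gave 1007 ± 67.9 in mutants and 919 ± 13.0 in wild type. Pax6, a paired-box factor of the same progenitors, gave 397 ± 45.7 in mutants and 379 ± 12.9 in wild type. The dorsal factors Pax7, Pax3 and Msx3 had log2 differences of -0.15 (SE 0.13), -0.11 (SE 0.20) and -0.13 (SE 0.33), and the other Pax3 probe set, with groups that did not overlap, had -0.39 (SE 0.17).

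**Figure D4:**
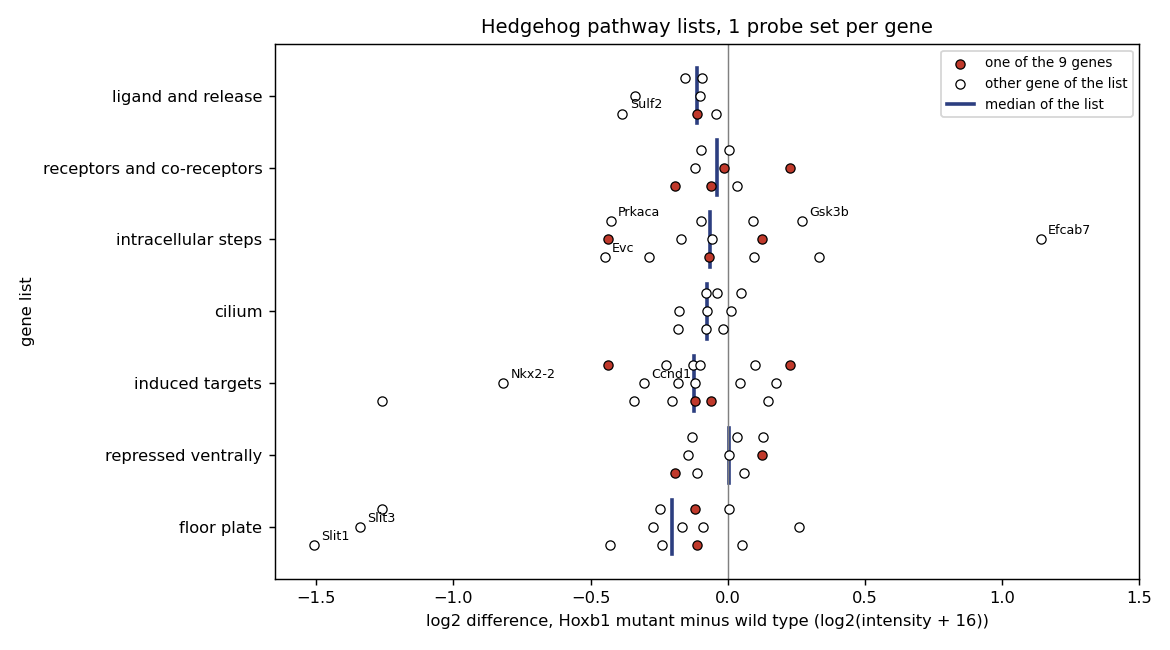
Log2 difference (mutant minus wild type) of each gene of 7 pathway lists, 1 probe set per gene, with the 9 genes filled and the list median as a bar. Genes with an unadjusted p under 0.05 are named, and Efcab7 lies at 1.14, Nkx2-2 at -0.82 and Slit1, whose mutant values lie at background, at a fitted -1.51.

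Of the 14 measured genes of the floor plate list, Shh and Foxa2 included, 11 had lower means in mutants, against 54.5% of all genes. At an unadjusted p under 0.05, 2 of them were lower, against 3.75% of all genes. Slit1 was among the 2, and earlier results of these data had shown it low before the lists were drawn up. That count is therefore partly fixed by the choice of genes. The median log2 difference of the 14 was -0.20. Without Shh and Foxa2, 9 of 12 had lower means and the median was -0.24. Most neural markers had lower means in mutants too. Of 13 neuron markers 11 had lower means, with a median log2 difference of -0.21 and sums of 14063 to 18520 in mutants and 17206 to 20911 in wild type. The 13 neural progenitor markers had a median of -0.14, and 3 of the 11 that were lower had an unadjusted p under 0.05, among them Sox3 (-0.76, SE 0.20) and Sox21 (-0.56, SE 0.18). None of these markers was at 0 on any array, and their part in the floor plate values was not tested. Slit1, a repellent axon guidance cue, gave 35.6, 72.0 and 36.8 in mutants and 179, 189 and 122 in wild type. Slit3 of the same family gave 13.9, 53.5 and 60.6 in mutants and 75.0, 189 and 122 in wild type, with every mutant array below 61.5. Since the mutant values lie at background, Slit3 is given as at least 1.96-fold lower in mutants, with each value under 61.5 set to 61.5. Slit1 had 1 of 3 mutant arrays above background and was at least 2.48-fold lower on the same terms. The limma unadjusted p was 0.000754 for Slit1 (adjusted p 0.498) and 0.0188 for Slit3 (adjusted p 0.833), and that of Slit3 was 0.188 with the 18S covariate. Both genes are also expressed in other cells of the hindbrain, motor neurons among them.

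The remaining genes of the list had differences in both directions. Ntn1, the attractant netrin of the midline, gave 559, 581 and 530 in mutants and 600, 664 and 772 in wild type, with no overlap (log2 difference -0.27, SE 0.13, limma adjusted p 0.833). Foxa1, a relative of Foxa2, gave 230 ± 9.34 in mutants and 246 ± 21.7 in wild type. Spon1, which encodes F-spondin, gave 480 ± 86.7 in mutants and 535 ± 17.4 in wild type. Ferd3l was below background on all arrays, and Corin gave 110 ± 16.2 in mutants and 88.8 ± 3.67 in wild type, in the other direction from the list's median. Sspo, which encodes SCO-spondin, had a log2 difference of -0.25 (SE 0.28). Lmx1b, a LIM homeobox factor, was above background on 1 of the 6 arrays. Slit2 and Alcam had log2 differences of 0.00 (SE 0.15) and 0.05 (SE 0.23), and Nkx6-1, described above, is also on the list.

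Genes listed as markers of other sources of Shh and Foxa2 in the tissue were also summed. The summed intensity of 14 markers of pharyngeal endoderm and other epithelium was 6082 to 7177 in mutants and 6165 to 7412 in wild type. Isl1, which motor neurons also express, gave 1459 to 1583 of that sum in mutants and 1552 to 1785 in wild type. The sum of 7 notochord markers was 2504 to 2886 in mutants and 2383 to 2869 in wild type. The lists share Krt8 and Krt18, which made up 1684 to 2115 of the notochord sum in mutants and 1569 to 2020 in wild type. The other 5 notochord markers, Nog, Sox9, Foxj1, Chrd and Cdx2, summed to 677 to 989 in mutants and 709 to 922 in wild type. T and Noto of the notochord were not analysed here, and the listed genes are not particular to it. The amount of notochord in each group was therefore not established. The ranges overlapped, and 0 genes of either list reached an unadjusted p under 0.05. Of the 7 notochord markers 5 had higher means in mutants, with a median log2 difference of 0.16, and the groups did not overlap for Nog, a BMP antagonist (0.25, SE 0.11). The epithelial genes Epcam and Cdh1 gave 640 ± 106 and 341 ± 106 in mutants, and 682 ± 82.0 and 316 ± 95.1 in wild type. Of the endoderm markers Nkx2-1 was below background on all 6 arrays.

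The probe sets whose intensity most followed that of Shh over the 6 arrays belonged to Rbm47, Tmprss2, Prokr1, Itga6 and Ptn, with Pearson r of 0.992 to 0.972 on the log2 scale. Those most like the bright Ptch1 probe set belonged to Angpt2, 1110008P14Rik, B4galt6, Mus81 and Vps26a, with r of 0.986 to 0.970. They were the highest of 15776 and 15775 probe sets above background. Over 6 arrays that share the scaling and the group difference such values describe likeness only, and the probe sets of a single member gene were themselves little alike. Between the probe sets of Ptch1 r was 0.10, of Gli2 0.08, of Hhip -0.14 and of Smo 0.67.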

How the data were processed

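RNA of 6 pools of rhombomere 4 tissue was hybridised to Affymetrix mouse arrays, per the labels. The authors deposited a linear intensity for each probe set and array, and the labels' processing notes name affy without a version. No source used here names the expression algorithm. Each array had a mean of 500.0 after trimming 2% at each end. The 64 control probe sets were left out, and 22626 were tested as log2(intensity + 16) with limma 3.58.1 in R 4.3.3 (no trend, 2-sided, no covariate), adjusted by Benjamini-Hochberg over all of them. Background was the 95th percentile of 27 bacterial probe sets. Symbols came from the platform annotation, updated by Entrez identifier for 20351 probe sets through RefSeq (GRCm38.p6). The array annotation names no build, so only RefSeq promoters carry coordinates. The genes and lists were chosen with earlier results of these data known. Named were all probe sets of the 9 genes, Hoxb1, the 3 genes with the smallest p in each direction of each list, and the 5 probe sets most like Shh and Ptch1. Others (Ihh, Dhh, Scube2, Foxf1, Ntn1, Foxa1, Spon1, Ferd3l, Olig2, Nkx2-9, Foxl1, Ift88, Sspo, Lmx1b and cell markers) were picked once their values were known. Of the listed pathway genes, 69 of 87 were measured. No array repeated another (0 identical pairs), and pairs correlated at 0.973 to 0.984 over probe sets. The fit was first tested on simulated intensities. Alternatives are given in the closing section. The number of arrays limits the precision.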

Additional observations from a re-analysis of the deposited data

How the results depend on the processing

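The call of 0 of the 15 probe sets and 0 of the 69 list genes at an adjusted p of 0.05 held under all 16 alternatives: quantile normalization, median centring, pseudocounts of 1 and 64, leaving out the dimmest 33.3% of probe sets, a trended, robust variance, weights per array, a replicate block, the 18S covariate, leaving out each array, and leaving out wild-type replicates 2 and 3. Over these, the lowest adjusted p of a member was 0.332. With the unadjusted threshold of 0.05 in its place 1 probe set passed. That count was 2 with quantile normalization, with a pseudocount of 64, with trend and robust settings and with the replicate block, and 1 to 2 when single arrays were left out. The list count of 9 was 3 of the 69 with the 18S covariate, where 4.01% of all probe sets reached that threshold. It ran from 5 to 10 when single arrays were left out, where the share of all probe sets ran from 4.68% to 8.73%. The median difference of -0.11 over the 15 probe sets lay between -0.12 and -0.027 without each array, the smaller size without mutant replicate 3, and was -0.11 when a gene's probe sets were averaged first. It was -0.16 with the 18S covariate and -0.15 without wild-type replicates 2 and 3. With median centring it was -0.06, and without the dimmest probe sets it was -0.15. Leaving out the dimmest probe sets kept 11 of the 15. Hoxb1 passed with median centring, without the dimmest probe sets, with trend and robust settings and with array weights, and its adjusted p ran from 0.0114 to 0.743 over the 16. The sign held under all alternatives for 9 of the 15 probe sets and turned under at least 1 for 6. The cause was not tested. Whether the replicate numbers pair the samples was not settled. Deviations of same-numbered arrays from their group means correlated at 0.09, -0.02 and 0.11, and those of differently numbered arrays at -0.11 to 0.04. The sample titles carry matching codes for same-numbered arrays, whose meaning is not given. With the replicate block 0 members passed the adjusted threshold, and the limma unadjusted p of Gli1 was 0.0362. That was its lowest over the 16 alternatives, of which 5 gave Gli1 an unadjusted p under 0.05. The limma unadjusted p of Gli1 was 0.113 with quantile normalization, 0.129 with median centring and 0.260 with the 18S covariate. Intensities near background limit Shh, Hhip and the third Gas1 probe set.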
